A study of Mus musculus with 7 samples.

Results

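The 8 noncoding RNA genes described here, Rn7s1, Rn7s2, Rn7sk, Rmrp, Rpph1, Terc, Malat1 and Neat1, were chosen by gene name, as the rows of the deposited count table whose name was exactly 1 of these. The 8 names matched 10 of the 55401 rows, because Rmrp and Terc each had 2 rows under different Ensembl identifiers. Of these 10 rows, 9 passed the filter on low counts (over 1 CPM, counts scaled to a common library size, in 2 or more samples), as did 16429 rows in all, and the second row of Rmrp did not.

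The samples were RNA pools of femoral and tibial articular cartilage of the knee, with subchondral bone named beside it in the study's methods. All 7 came from the right knee of male C57BL/6J mice that underwent destabilisation of the medial meniscus (DMM), a surgical model of osteoarthritis, at 10 weeks of age and were killed 2 weeks later. By the labels, 4 samples were WT and 3 were Trpc1-/-, which lack Trpc1, a subunit of calcium-permeable cation channels, in all cells through the Trpc1tm1Lbi allele (deletion of exon 8). Each sample pooled 2 to 3 mice, and no sham-operated sample was analysed here. The study's methods give 3 WT and 4 Trpc1-/- samples, and the labels were used. The labels also hold a number for each sample, called the mouse number here, which they do not explain. How 1 number relates to a pool of 2 to 3 mice is not stated, nor whether the numbers mark batches. The mouse numbers lay in the 1300s for WT replicates 1 and 2 and all Trpc1-/- samples, and in the 1700s for WT replicates 3 and 4.

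Total counts per sample lay between 52142451 and 118254070, with WT replicate 1 the lowest, so that 3 counts, the floor used here, corresponded to 0.0254 to 0.0575 CPM. Trpc1 itself was at 4.33 to 4.83 CPM in WT and 3.04 to 3.79 CPM in Trpc1-/- samples, ranges that do not overlap, with counts that include exons outside the deleted one. All 8 chondrocyte markers passed the filter on low counts, and 0 of these 8 were estimated higher in Trpc1-/- samples. Their summed level was 4984 to 5605 CPM in WT and 2905 to 5266 CPM in Trpc1-/- samples. WT replicate 1 stood apart. It had the highest share of mt-Rnr2, the mitochondrial large ribosomal RNA left after ribosomal RNA depletion, at 19.6% against 12.3% to 15.4% in the other samples. The summed level of 10 erythroid markers was lower in every WT sample (18815 to 35940 CPM) than in every Trpc1-/- sample (41517 to 56920 CPM), with WT replicate 1 the lowest. The part of these differences in the results on the noncoding RNAs was not tested. In pooled tissue, fewer cells of a type and less RNA per cell cannot be told apart.

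These RNAs are structural or catalytic parts of ribonucleoprotein particles and nuclear bodies. 7SL, encoded by Rn7s1 and Rn7s2, is the scaffold of the signal recognition particle (SRP), which brings ribosomes that translate secreted and membrane proteins, such as the collagens of cartilage, to the endoplasmic reticulum. 7SK (Rn7sk) holds the elongation kinase P-TEFb inactive. Rmrp and Rpph1 are the RNA subunits of the related enzymes RNase MRP and RNase P, which process ribosomal RNA and transfer RNA precursors, and mutations of the human RMRP gene cause cartilage-hair hypoplasia, a skeletal dysplasia. Terc carries the template of telomerase. Malat1 and Neat1 are long nuclear RNAs found in nuclear speckles and paraspeckles. RNA polymerase III makes 7SL, 7SK, Rmrp and Rpph1, and RNA polymerase II makes the rest.

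The sequences of 4 short members are shown. Capitals mark motifs in Rn7sk and Terc, and bases outside an overlapping annotated gene in Rmrp and Rpph1. All 4 sequences are taken from the GENCODE M21 transcripts of the GRCm38 build and written 5′ to 3′ with T for U. Rn7s1 and Rn7s2, on chromosome 12 and not shown, had the same 300 bases, with 0 differences.

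The first 300 of the 331 bases of Rn7sk (chr9:78175303-78175633, minus strand), a gene 17.5 Mb from Trpc1, hold GATC 3 times, in capitals, at bases 13, 42 and 64. GAUC repeats in the 5′ hairpin of 7SK are known to bind the P-TEFb inhibitor Hexim1. GATC reads the same on both strands. It occurs in the first 300 bases of 58.3% of the 131058 annotated transcripts that are at least this long, and 3 or more times in 6.33% of them.
Rn7sk, bases 1 to 300: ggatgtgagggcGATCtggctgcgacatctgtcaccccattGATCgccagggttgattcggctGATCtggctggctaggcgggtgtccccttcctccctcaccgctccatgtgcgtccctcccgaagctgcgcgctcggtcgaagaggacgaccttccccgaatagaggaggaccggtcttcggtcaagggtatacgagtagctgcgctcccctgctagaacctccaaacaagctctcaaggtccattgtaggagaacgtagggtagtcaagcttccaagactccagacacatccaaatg

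Rmrp was annotated as 2 genes in the same place, as a ribozyme of 271 bases (ENSMUSG00000088088, chr4:43492788-43493058, minus strand) and as a long noncoding RNA of 281 bases (ENSMUSG00000115420, chr4:43492783-43493063). The capitals mark the 10 bases that only the longer entry holds.
Rmrp: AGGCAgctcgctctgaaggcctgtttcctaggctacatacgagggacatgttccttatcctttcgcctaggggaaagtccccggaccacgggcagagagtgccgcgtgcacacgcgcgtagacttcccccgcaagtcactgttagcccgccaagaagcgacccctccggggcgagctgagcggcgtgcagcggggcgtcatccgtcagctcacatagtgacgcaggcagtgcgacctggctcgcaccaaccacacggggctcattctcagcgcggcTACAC

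Rpph1 (chr14:50807449-50807767, minus strand, 319 bases) overlaps the protein-coding gene Ccnb1ip1 on the same strand over 284 bases. The capitals mark the 35 bases outside Ccnb1ip1.
Rpph1, bases 1 to 300: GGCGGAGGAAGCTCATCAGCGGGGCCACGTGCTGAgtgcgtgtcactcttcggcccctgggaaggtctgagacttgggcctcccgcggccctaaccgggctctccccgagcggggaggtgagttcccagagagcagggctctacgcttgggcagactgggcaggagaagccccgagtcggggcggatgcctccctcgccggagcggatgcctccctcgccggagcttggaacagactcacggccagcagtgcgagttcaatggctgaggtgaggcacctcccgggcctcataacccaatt

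The Terc entry with a known position (ENSMUSG00000064796, chr3:96414437-96414859, minus strand, 423 bases) is shown up to base 300. Its capitals mark CTAACCC, letters of the template that telomerase copies into telomere repeats, which occur once, at base 29. CTAACCC or its reverse complement occurs in the first 300 bases of 1.62% of those transcripts. The second Terc entry, ENSMUSG00000118406, is not in GENCODE M21, and its position was not analysed here.
Terc, bases 1 to 300: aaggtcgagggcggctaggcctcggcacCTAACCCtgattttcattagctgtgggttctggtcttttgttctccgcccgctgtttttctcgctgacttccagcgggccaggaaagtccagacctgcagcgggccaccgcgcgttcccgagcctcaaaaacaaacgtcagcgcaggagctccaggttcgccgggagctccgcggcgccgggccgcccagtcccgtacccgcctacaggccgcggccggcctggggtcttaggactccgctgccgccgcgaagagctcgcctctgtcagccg

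The 8 RNAs took up a large part of the libraries. Together they held 14.8%, 8.70%, 9.09% and 9.77% of all counts in WT replicates 1 to 4, and 7.65%, 10.4% and 12.5% in Trpc1-/- replicates 1 to 3. WT averaged 10.6% ± 2.85 (SD, n = 4) and Trpc1-/- 10.2% ± 2.45 (SD, n = 3). The groups overlapped, and WT replicate 1 and Trpc1-/- replicate 3 were the 2 highest samples. By mean share of counts, Rn7s1 and Rn7s2 ranked 2nd and 3rd of all genes, Rn7sk 5th, Malat1 11th, Rpph1 13th, Rmrp 27th and Neat1 72nd. Levels per kilobase of exon allow for gene length, and are given by library size, without TMM factors. The WT mean was 130957 CPM for Rn7s1, 33011 for Rn7sk, 18421 for Rpph1, 8202 for the main Rmrp row, 1172 for Malat1, 37.1 for Neat1 and 8.50 for the Terc row with a known length. The Rn7s1 and Rn7sk rows share sequence with other rows, as described below, so each holds part of the reads of its RNA. Whether short and long RNAs were captured alike was not tested. The order of these levels per kilobase was the same in Trpc1-/- samples, from 123539 for Rn7s1 to 0.573 for that Terc row. The Terc row holds a different part of the Terc counts in each sample, as described below, so its 8.50 and 0.573 do not compare Terc between the genotypes.

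**Figure D1:**
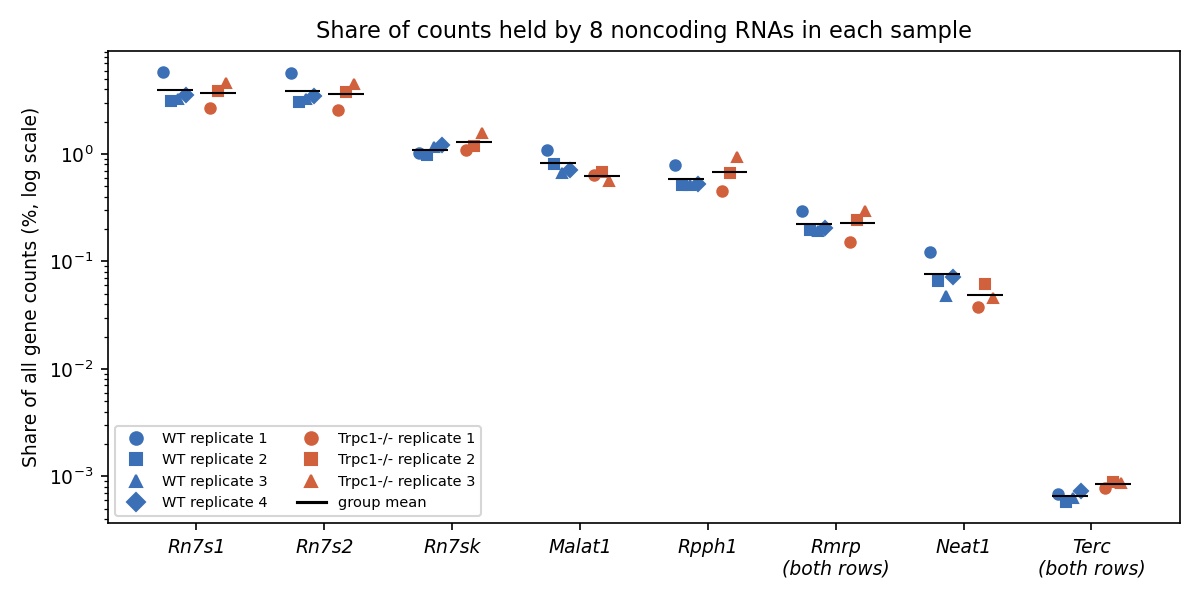
Share of all gene counts in percent (log axis) for each of the 8 noncoding RNAs, with 1 symbol per sample, WT in blue and Trpc1-/- in orange, and a bar at the group mean. The RNAs span from 5.79% for Rn7s1 in WT replicate 1 to below 0.001% for Terc. The symbols of the genotypes overlap for every RNA except Terc, whose share lies higher in each Trpc1-/- sample. In TMM-normalized CPM the genotypes overlap for Terc too, and how many of all genes separate by share is not given here.

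The question put to each RNA was whether its level after DMM differed between the genotypes. By edgeR's quasi-likelihood test, with p-values adjusted by Benjamini-Hochberg and a threshold of 0.05, 0 of the 9 tested rows were called, as were 0 of all 16429 genes (0%). At an unadjusted p under 0.05 stood 10% of all genes (4.51% higher and 5.49% lower in Trpc1-/- samples). Of the 9 rows only ENSMUSG00000064796 of Terc was among them, a row that passed the filter on low counts only through the WT samples where it was high, so nothing is read from its test. DESeq2 called 0 of the 9 at an adjusted p under 0.05, beside 1.79% of all genes. The samples of the genotypes did not overlap for 1 of the 9 rows, ENSMUSG00000118406 of Terc, beside 13.6% of all genes.

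7SL was the most abundant of the 8. Rn7s1 stood at 63596, 29414, 31120 and 33917 CPM in WT replicates 1 to 4 and at 25996, 39291 and 49951 CPM in Trpc1-/- replicates 1 to 3. WT replicate 1 was the highest sample and Trpc1-/- replicate 1 the lowest, with the other samples of each genotype between them. Rn7s2 followed it at 1.01 to 1.04 counts of Rn7s1 per count of Rn7s2 in every sample. For the sum of both rows, WT averaged 78420 ± 32171 CPM (SD, n = 4) and Trpc1-/- 75981 ± 24134 CPM (SD, n = 3). It had a logFC (log2 fold change, Trpc1-/- minus WT) of -0.05 (SE 0.38, 95% interval -0.93 to 0.83, edgeR adjusted p = 0.971). The interval runs from a 0.527-fold to a 1.78-fold level, so changes of this size were not detectable with these samples. Without WT replicate 1 the logFC was 0.28, and without Trpc1-/- replicate 3 it was -0.29, with adjusted p of at least 0.661 whichever sample was left out.

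Reads of 7SL could not be assigned to 1 gene. All 226 stretches of 75 bases, the read length, in Rn7s1 also occur in Rn7s2. Rn7s6, another 7SL-like gene with 254 identical bases in its alignment, shares 99 of them and held 0.470% to 0.932% of counts, with 11.0 to 12.3 counts of Rn7s1 and Rn7s2 per count of Rn7s6. The 7SL rows summed with every row that shares such a stretch (6 rows) gave a logFC of -0.04 (SE 0.38, edgeR adjusted p = 0.974). The 4 annotated microRNA genes inside 7SL took few counts beside it and unequal ones. Gm47299, in Rn7s2, had 24817 to 51620 counts, whereas Gm47295, on the matching stretch of Rn7s1, had 1 or 2 in every sample. Gm47287, in Rn7s1, was counted 635, 1662, 2020 and 2017 times in WT (replicates 1 to 4) and 1, 4029 and 14175 times in Trpc1-/- (replicates 1 to 3). Its single count in Trpc1-/- replicate 1 stands beside 2797 counts in the matching gene of Rn7s2, Gm47305.

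7SK was the next most abundant. Rn7sk was at 11345, 9190, 10985 and 11591 CPM in WT replicates 1 to 4, and at 10488, 12293 and 17271 CPM in Trpc1-/- replicates 1 to 3. Trpc1-/- replicates 2 and 3 lay above all WT samples and replicate 1 lay among them. WT replicate 1, the highest for 7SL, was not so for 7SK, and its 11.1 counts of 7SL per count of 7SK stood against 4.87 to 6.32 in the other samples. The coefficient of variation of 7SK was 10.1% in WT (n = 4) and 26.3% in Trpc1-/- samples (n = 3), against 41.0% and 31.8% for 7SL. The low value in WT beside 7SL rested on WT replicate 1, without which the coefficients in WT were 11.8% for 7SK and 7.62% for 7SL. The logFC was 0.31 (SE 0.21, 95% interval -0.19 to 0.80, edgeR adjusted p = 0.612). It was 0.08 without Trpc1-/- replicate 3 and 0.46 without Trpc1-/- replicate 1.

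Of the 257 stretches of 75 bases in Rn7sk, 167 also occur in other annotated genes. These were Gm24447, with 166157 to 422556 counts, Gm26315, with 155084 to 390112, and Gm26035 and Gm24146, with fewer. The named Rn7sk row held 61.4% (WT replicate 1) to 70.7% (Trpc1-/- replicate 1) of the counts of all 5. Summed, they gave a logFC of 0.27 (SE 0.23, edgeR adjusted p = 0.676).

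**Figure D2:**
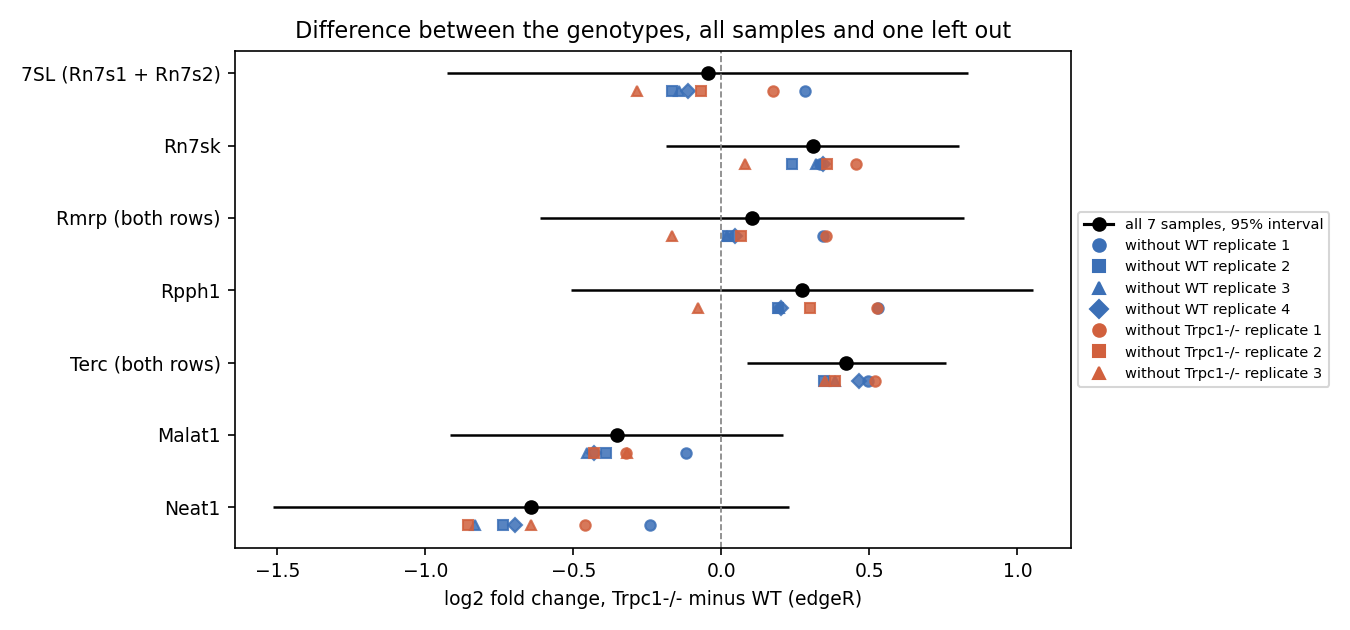
Log2 fold change of each noncoding RNA (x axis, Trpc1-/- minus WT, from edgeR), with all 7 samples as a black point with its 95% interval and, just below it, the values when 1 sample is left out. With all samples the interval of Terc is 0.09 to 0.76 and those of the other RNAs include 0. Leaving out 1 sample moves 7SL, Rmrp and Rpph1 across 0.

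The RNA subunits of RNase MRP and RNase P ordered the samples much as 7SL did. The main Rmrp row was at 3252, 1842, 1832 and 1968 CPM in WT replicates 1 to 4 and at 1481, 2480 and 3201 CPM in Trpc1-/- replicates 1 to 3. As with 7SL, WT replicate 1 was the highest and Trpc1-/- replicate 1 the lowest. Its logFC was 0.10 (SE 0.31, 95% interval -0.61 to 0.82, edgeR adjusted p = 0.915), with -0.17 without Trpc1-/- replicate 3. The longer Rmrp entry, which differs by 10 end bases, had 31 to 127 counts and 0.0187% to 0.0441% of the Rmrp counts, and reads on the shared bases cannot be told apart. Ccdc107, on the opposite strand over 159 bases, had 543 to 986 counts.

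Rpph1 stood at 8765, 4869, 4904 and 4997 CPM in WT replicates 1 to 4 and at 4369, 6776 and 10179 CPM in Trpc1-/- replicates 1 to 3. Trpc1-/- replicate 3 was the highest here, above WT replicate 1. The logFC was 0.27 (SE 0.34, 95% interval -0.51 to 1.05, edgeR adjusted p = 0.770). It was 0.53 without WT replicate 1 and -0.08 without Trpc1-/- replicate 3. Ccnb1ip1, which shares 159 of the 245 stretches of 75 bases in Rpph1, was listed at 0 counts in every sample. The counts of Rpph1 per count of Rmrp, a ratio within each sample, were 2.69, 2.64, 2.68 and 2.54 in WT replicates 1 to 4 and 2.95, 2.73 and 3.18 in Trpc1-/- replicates 1 to 3. The lowest Trpc1-/- ratio lay above the highest WT ratio, with means of 2.64 ± 0.0696 (SD, n = 4) and 2.95 ± 0.223 (SD, n = 3). The ratio was 1 of 4 computed within samples and was not tested.

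Terc was the least abundant of the 8, at 356 to 930 counts per sample over both rows, and its counts were placed in different rows in different samples. ENSMUSG00000118406 was given 318, 573, 2 and 0 of them in WT (replicates 1 to 4) and 885, 826 and 898 in Trpc1-/- (replicates 1 to 3). ENSMUSG00000064796 was given 38, 5, 729 and 554 in the same WT samples and 33, 14 and 32 in the same Trpc1-/- samples. WT replicates 3 and 4, whose mouse numbers lay in the 1700s, thus had 99.7% and 100% of their Terc counts in ENSMUSG00000064796, and the other 5 samples had 0.865% to 10.7% there. The row of a count and the series of mouse numbers moved together in all 7 samples. 

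Taken as they stand, the rows of Terc gave opposite differences. ENSMUSG00000064796 had a logFC of -3.79. It exceeded 1 CPM only in WT replicates 3 and 4 and did not pass the filter when either was left out, so its difference is given with no SE and no test. ENSMUSG00000118406 had a logFC of 1.50 (SE 1.39, edgeR adjusted p = 0.696), which was 5.31 with limma-voom (adjusted p = 0.404) and 1.07 to 2.20 with a sample left out. With the series of mouse numbers as a covariate, these were -0.58 and 0.48. Within the 1300s alone ENSMUSG00000118406 gave 0.48. The sum of both rows removes the dependence on the row, and was chosen after the switch was seen.

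By that sum, Terc was at 7.50, 5.47, 5.95 and 7.05 CPM in WT replicates 1 to 4 and at 7.50, 9.05 and 9.51 CPM in Trpc1-/- replicates 1 to 3. WT replicate 1 and Trpc1-/- replicate 1 were level to 3 digits, and all other Trpc1-/- samples lay above all other WT samples. In TMM-normalized CPM the genotypes thus overlapped. By share of all counts, without TMM normalization, the lowest Trpc1-/- sample (0.000776%) lay above the highest WT sample (0.000736%). How many of all genes separate by share of counts is not given here, so nothing is read from this. WT averaged 6.49 ± 0.945 CPM (SD, n = 4) and Trpc1-/- 8.68 ± 1.06 CPM (SD, n = 3), which gave a logFC of 0.42 (SE 0.14, 95% interval 0.09 to 0.76) or a 1.34-fold level. The unadjusted p was 0.0203 and the adjusted p 0.442 in edgeR (0.184 in DESeq2), so the difference did not pass the test over all genes. Leaving out each sample kept the logFC at 0.35 to 0.52, with an unadjusted p in edgeR of 0.00577 to 0.0809, above 0.05 for 4 of the 7 samples left out (WT replicates 2 and 3 and Trpc1-/- replicates 2 and 3). With the series of mouse numbers as a covariate the logFC was 0.43 (edgeR unadjusted p = 0.0556), and within the 1300s 0.42 (edgeR unadjusted p = 0.0725), so the interval included 0 in these fits.

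**Figure D3:**
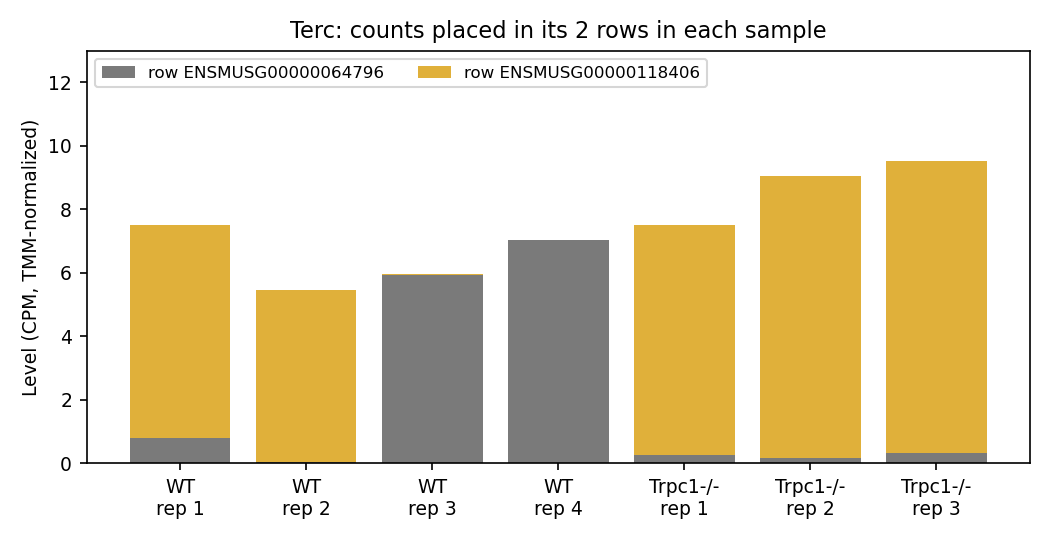
Level of Terc in CPM (TMM-normalized) in each sample, stacked by the row that holds the counts, ENSMUSG00000064796 in grey and ENSMUSG00000118406 in yellow. WT replicates 3 and 4 are grey, with 99.7% and 100% of counts in that row, and the other 5 samples are almost all yellow, whereas the height of the bars runs only from 5.47 to 9.51 CPM.

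Malat1 and Neat1 lie 22.0 kb apart on chromosome 19 (Malat1 at chr19:5795690-5802672 and Neat1 at chr19:5824708-5845478, both on the minus strand). Malat1 was at 11882, 7593, 6403 and 6840 CPM in WT replicates 1 to 4 and at 6110, 7013 and 6076 CPM in Trpc1-/- replicates 1 to 3. WT replicate 1 was the highest, and Trpc1-/- replicates 1 and 3 lay below all WT samples. Its logFC was -0.35 (SE 0.24, 95% interval -0.92 to 0.21, edgeR adjusted p = 0.609). Without WT replicate 1 it was -0.12.

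Neat1 stood at 1346, 622, 451 and 692 CPM in WT replicates 1 to 4 and at 365, 631 and 498 CPM in Trpc1-/- replicates 1 to 3. WT replicate 1 was again the highest and Trpc1-/- replicate 1 the lowest, and the other samples of both genotypes overlapped. The logFC was -0.64 (SE 0.38, 95% interval -1.51 to 0.23, edgeR adjusted p = 0.567) and -0.24 without WT replicate 1. Between 8.82 (WT replicate 1) and 16.7 (Trpc1-/- replicate 1) counts of Malat1 were found per count of Neat1. Within the 1300s, where WT replicate 1 is 1 of 2 WT samples, the logFC was -0.61 for Malat1 and -0.98 for Neat1, with edgeR adjusted p of 0.380 and 0.373.

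Across the 7 samples, the levels of 7SL, Rmrp and Rpph1 followed each other. Correlations used log2 (CPM + 1) of counts summed by gene name, with exact two-sided permutation tests adjusted over the 28 pairs. Of these, 8 had an adjusted p under 0.05 for Pearson's r, and 7 with library size alone as the scale. The pair of Rn7s1 and Rn7s2, which have the same sequence, and the pairs of Rn7s2 with Rmrp and Rpph1, which repeat those of Rn7s1, are among the 8 and are not separate results. Rn7s1 and Rmrp gave r = 0.969 and rho = 0.964 (exact permutation p = 0.000397 and 0.00278, adjusted p = 0.00370 and 0.0156), and r = 0.978 without WT replicate 1 and Trpc1-/- replicate 3. Rn7s1 and Rpph1 gave r = 0.926 and rho = 0.964 (exact permutation p = 0.00496 and 0.00278, adjusted p = 0.0231 and 0.0156), and r = 0.926 without the same samples. Rmrp and Rpph1 gave r = 0.975 and rho = 0.929 (exact permutation p = 0.00159 and 0.00675, adjusted p = 0.0111 and 0.0315), and r = 0.956 without them. These RNAs share the library, its depth and its normalization in each sample, and no correlation was computed within a genotype or a series of mouse numbers, which held 5 samples at most.

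Of the pairs of 7SK with these RNAs, none had an adjusted p under 0.05. Against Rn7s1 it gave r = 0.563 and rho = 0.750 (exact permutation p = 0.189 and 0.0663, adjusted p = 0.279 and 0.143), and r = 0.734 without WT replicate 1 and Trpc1-/- replicate 3. Against Rmrp it gave r = 0.677 and rho = 0.679 (exact permutation p = 0.0756 and 0.110, adjusted p = 0.176 and 0.170), and r = 0.614 without WT replicate 2 and Trpc1-/- replicate 3. Against Rpph1 it gave r = 0.774 and rho = 0.857 (exact permutation p = 0.0208 and 0.0238, adjusted p = 0.0648 and 0.0952), and r = 0.545 without these. Whether the pairs of 7SK differ from the others was not tested. Its pair with Terc had r = 0.818 and rho = 0.821 (exact permutation p = 0.0101 and 0.0341, adjusted p = 0.0354 and 0.119), with r = 0.593 without WT replicate 2 and Trpc1-/- replicate 3, on which the relation rested. Malat1 and Neat1 gave r = 0.935 and rho = 0.750 (exact permutation p = 0.00635 and 0.0663, adjusted p = 0.0254 and 0.143), and r = 0.823 without WT replicate 1 and Trpc1-/- replicate 3. Against Rpph1, Malat1 gave r = 0.369 and rho = 0.0357 (exact permutation p = 0.466 and 0.963, adjusted p = 0.522 and 0.963).

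**Figure D4:**
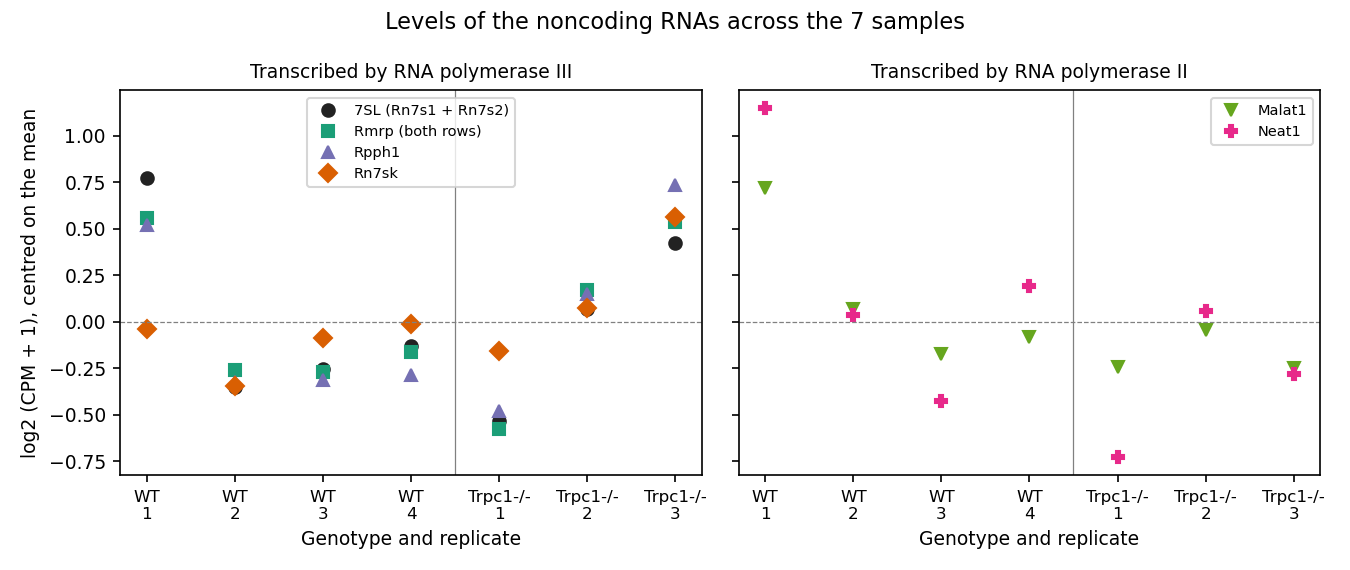
Level of each noncoding RNA in each sample as log2 (CPM + 1) minus its mean over the 7 samples, with RNAs made by RNA polymerase III on the left and by RNA polymerase II on the right (Terc left out). 7SL, Rmrp and Rpph1 move as a group, highest in WT replicate 1 and Trpc1-/- replicate 3 and lowest in Trpc1-/- replicate 1, whereas 7SK stays near its mean in WT replicate 1, and Malat1 and Neat1 are highest in WT replicate 1.

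The genes whose pattern over the 7 samples was nearest to that of a member (smallest root-mean-square difference of centred log2 CPM, given here in log2 units) were Rn7s6 for Rn7s1 (0.05), then Rbfox1 (0.07) and Gm47299 (0.10). For Rmrp they were Gm47299 (0.06), Rn7s6 (0.06) and Snora73b (0.11), and for Rpph1 Slc15a2 (0.11), Gm47299 (0.12) and Snhg3 (0.13). Only the members themselves were left out of this search. Rn7s6 and Gm47299 share stretches of 75 bases with 7SL, so their nearness to Rn7s1 is no separate result. Their nearness to Rmrp and Rpph1 repeats that of 7SL. Rn7sk was nearest to Scarna10 (0.11), Gm24336 (0.11) and H3f4 (0.12), Malat1 to Ptpn14 (0.04), Dnm3os (0.04) and Gm48562 (0.04), and Neat1 to 9530086O07Rik (0.07), Gm38056 (0.09) and Gm38043 (0.10). Both rows of Terc summed were nearest to Kbtbd12 (0.04), Klra8 (0.04) and Ccr6 (0.08).

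The proteins that work with these RNAs were read from lists of their partners. In no list was a gene called by edgeR or DESeq2 at an adjusted p under 0.05. Of 10 tested proteins of the SRP and its receptor, 8 had a logFC above 0 (median 0.13, beside -0.01 for all genes), and 4 were higher in Trpc1-/- samples at an unadjusted p under 0.05, beside 4.51% of all genes. Without WT replicate 1 the median was 0.05, and Srprb, of the receptor, was lower at an unadjusted p under 0.05 (logFC -0.15) beside 4 genes that were higher. In that fit 2748 of all 16242 tested genes were past this threshold, in either direction. Srp19, which helps to assemble the particle, was at 16.4, 19.4, 19.6 and 15.4 CPM in WT replicates 1 to 4 and at 24.1, 20.5 and 20.7 CPM in Trpc1-/- replicates 1 to 3 (logFC 0.30, SE 0.11, edgeR adjusted p = 0.462). Every Trpc1-/- sample lay above every WT sample. The genotypes did not overlap for 4 of the 10 tested genes, beside 13.6% of all genes. The others were Srp54a (logFC 0.21), Srp54b (0.23) and Srp54c (0.22), which encode the signal-binding subunit and are near-identical copies among which reads could be split, so that they are not 3 separate results. Srp54b, with the smallest p, had 62.5, 65.2, 64.1 and 57.7 CPM in WT and 75.6, 72.7 and 71.9 CPM in Trpc1-/- samples (SE 0.07, edgeR adjusted p = 0.408, DESeq2 adjusted p = 0.0554).

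Of 7 tested proteins of the 7SK particle and P-TEFb, 0 were past an unadjusted p under 0.05, with 4 above 0 and a median logFC of 0.00. Cdk9, the kinase of P-TEFb, had a logFC of -0.19 and Larp7, which binds 7SK, 0.22 (edgeR adjusted p = 0.557 and 0.588). Of 10 tested proteins of RNase P and MRP, 0 were past it and 9 were above 0 (median 0.15), with Rpp30 at 0.22 and Rpp38 at 0.28 (edgeR adjusted p = 0.542 and 0.558). Of 9 telomerase and H/ACA proteins, 0 were past it and 7 were above 0 (median 0.17). Dkc1, the pseudouridine synthase that binds Terc, was at 32.9, 44.2, 46.5 and 44.4 CPM in WT and at 52.0, 49.7 and 50.9 CPM in Trpc1-/- samples, without overlap (logFC 0.28, SE 0.12, edgeR adjusted p = 0.499). Nhp2, its partner in the H/ACA core, had a logFC of 0.35 (SE 0.16, edgeR adjusted p = 0.511) and likewise did not overlap. These were 2 of the 9 tested, beside 13.6% of all genes without overlap. Without WT replicate 1, Dkc1 and Nhp2 were past an unadjusted p under 0.05, at a logFC of 0.17 and 0.21, and neither was called. In that fit 2748 of all 16242 tested genes were past it.

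Among 28 tested subunits and factors of RNA polymerase III, 0 were past an unadjusted p under 0.05, and 16 lay above 0 and 12 below (median 0.03). Polr3g, a polymerase subunit, had a logFC of 0.30 and Snapc1, of the factor that binds promoters such as those of 7SK and Rmrp, -0.19 (edgeR adjusted p = 0.525 and 0.533). Paraspeckle proteins, 11 tested, and nuclear speckle and Malat1-processing proteins, 9 tested, had 0 past it, with medians of 0.05 and 0.03. Without WT replicate 1 the medians were 0.05 for the 7SK particle, 0.08 for RNase P and MRP, 0.01 for RNA polymerase III, 0.12 for paraspeckles and 0.10 for speckles. With library size alone as the scale, where the median of all genes was -0.07, those of the 7SK particle (-0.05), RNA polymerase III (-0.03) and speckles (-0.03) lay below 0. The smallest p among paraspeckle and speckle proteins belonged to Nudt21 (logFC 0.22) and Srsf1 (0.19), with edgeR adjusted p of 0.571 and 0.514.

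Other long noncoding RNAs were not all on the side of Malat1 and Neat1. Of 21 tested, 2 were higher and 1 lower at an unadjusted p under 0.05, beside 10% of all genes past it in either direction, and 12 lay above 0 and 9 below (median 0.05). Snhg5 and Snhg1, small nucleolar RNA host genes, had logFC of 0.24 and 0.22 (edgeR adjusted p = 0.404 and 0.462). Miat was at 8.54, 4.56, 3.79 and 3.09 CPM in WT and at 2.44, 2.79 and 1.89 CPM in Trpc1-/- samples, a logFC of -1.06 (SE 0.36, edgeR adjusted p = 0.438). These 3 were without overlap between the genotypes, as were Gas5 and Oip5os1, 5 of 21 beside 13.6% of all genes, and Miat, like Malat1 and Neat1, was highest in WT replicate 1.

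Among other small structural RNAs, all 22 tested rows had a logFC below 0 (median -0.27), and with WT replicate 1 left out the median was 0.05. These rows included the spliceosomal Rnu1, Rnu2-10, Rnu5g, Rnu11 and Rnu12, the U3 genes Rnu3a and Rnu3b1 to Rnu3b4, which are near-identical copies, Bc1, Vaultrc5 and the Y RNAs Rny1 and Rny3. The 22 rows carry 17 names and include several Rnu1 and U3 rows, so they are not 22 separate results. Counts of Rnu3a moved between its 2 rows from sample to sample, as described below. Their logFC were -0.003 (SE 1.80) and -0.26 (SE 2.78). WT replicate 1 had the highest level of all samples in 21 of the 22 rows, as it had for 7SL. Only Rny1 and Rny3, small RNAs bound by the Ro60 protein, were past an unadjusted p under 0.05. Rny1 was at 32.6, 24.3, 18.3 and 21.7 CPM in WT replicates 1 to 4 and at 16.9, 16.7 and 15.0 CPM in Trpc1-/- replicates 1 to 3 (logFC -0.58, SE 0.18, edgeR adjusted p = 0.422), without overlap. This was 1 of the 22 rows, beside 13.6% of all genes without overlap. Rny3 had a logFC of -0.66 (SE 0.26, edgeR adjusted p = 0.479). Without WT replicate 1 they were at -0.41 and -0.46. The mitochondrial ribosomal RNAs mt-Rnr1 and mt-Rnr2 had logFC of -0.06 and 0.06 (edgeR adjusted p = 0.957 and 0.954), and of 0.31 and 0.32 without WT replicate 1.

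**Figure D5:**
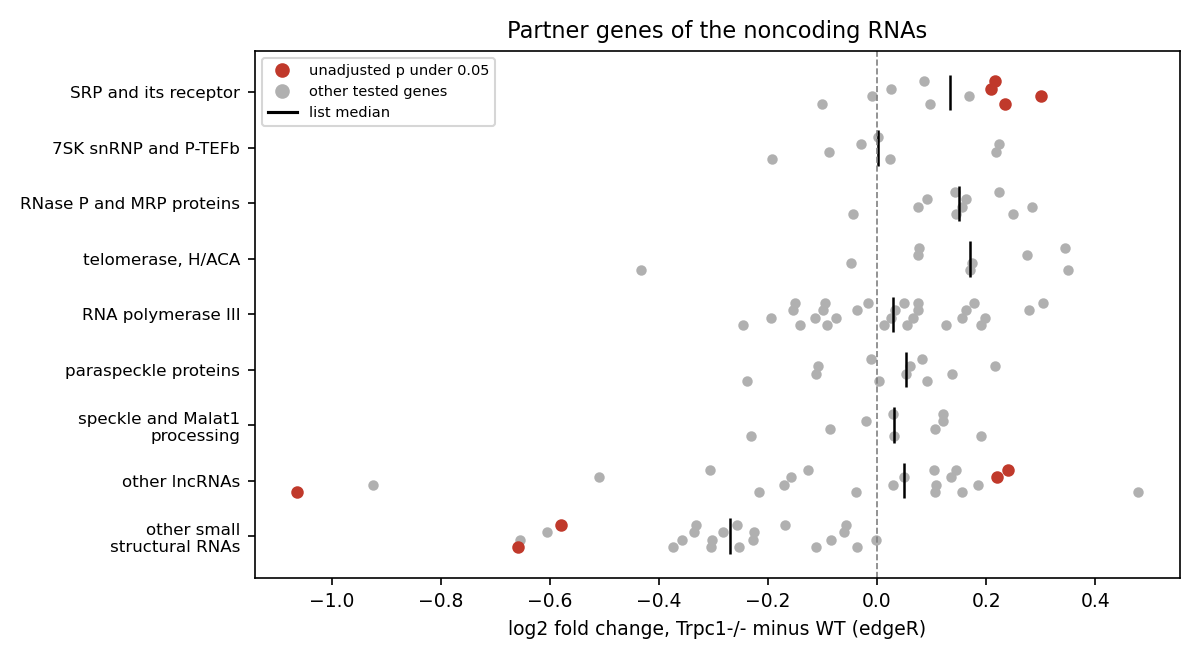
Log2 fold change (x axis, Trpc1-/- minus WT, from edgeR) of every tested gene in 9 lists of genes related to the noncoding RNAs, with red points at an unadjusted p under 0.05 and a bar at each list's median. The 4 red SRP genes lie between 0.21 and 0.30, and the 22 rows of other small structural RNAs all lie below 0. These 22 rows include copies of the same RNA, and without WT replicate 1 their median is 0.05.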

How the data were processed

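RNA was sequenced from 7 pooled samples after ribosomal RNA depletion (TruSeq Stranded Total RNA with RiboZero), as 75-base paired reads. Per the submitters' processing notes and the study's methods, the authors trimmed with Cutadapt 2.5, aligned to GRCm38 with HISAT2 2.1.0, and ran StringTie 2.0.3 and its count script, so the deposited values are estimated counts per gene, whole numbers, not normalized. How that step divides reads among copies is fixed in the counts. The annotation release is not given in the sources used here. GENCODE M21 was used for positions and sequences and matched 55141 of the 55401 identifiers.

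TMM normalization and the quasi-likelihood test of edgeR 4.0.16 (R 4.3.3) were applied with genotype as the sole term, Benjamini-Hochberg adjustment over the 16429 genes above 1 CPM in 2 or more samples, and a threshold of 0.05. DESeq2 1.42.0, limma 3.58.1 (voom), other scalings and filters, the replicate block, the series of mouse numbers and each sample left out were alternatives. The summing of rows with the same name or shared stretches, and the fits on replicates 1 to 3 without a block or in DESeq2 with one, were added after seeing the data. SE values were derived from the F statistic. CPM values are TMM-normalized unless said otherwise. The fit was tested on simulated data. The floor on counts covers counting error only. The intervals of the logFC were built from the SE of the edgeR fit and so include the spread between pools. P-values of the fits set the difference between the genotypes against the spread between pools. Those of the correlations come from permuted pairings of the 7 samples.

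The named genes are every member, the genes of each partner list with an unadjusted p under 0.05 and beside them the 2 with the smallest p, the ribosomal and other small structural RNAs, and the 3 genes with the nearest pattern to each member. The sequence of 7SL is not reported here. The members and lists were chosen with earlier results of these data known.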

Additional observations from a re-analysis of the deposited data

Results flagged for a closer look

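In WT, where the group of 4 samples allows Dixon's test for an outlier, 37 levels were tested (members, their sums and named partner genes), and 9 were flagged, all in WT replicate 1. Chance flags about 1 in 20 groups, and these 9 come from the same sample and are not independent. Rn7s1 was at 63596 CPM there against 29414 to 33917 CPM in the other WT samples, Rn7s2 at 62726 CPM against 28591 to 33556 CPM, and their sum at 126322 CPM against 58005 to 67472 CPM. The main Rmrp row was at 3252 CPM against 1832 to 1968 CPM, and both Rmrp rows together at 3253 CPM against 1833 to 1969 CPM. Rpph1 was at 8765 CPM against 4869 to 4997 CPM, and mt-Rnr2 at 215591 CPM against 117765 to 121997 CPM. Dkc1 and Srsf1 were low there, at 32.9 CPM against 44.2 to 46.5 CPM and at 264 CPM against 301 to 308 CPM. WT replicate 1 also had the lowest total count, 52142451, and the part of depth in these values was not tested.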

How the results depend on the processing

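The 12 logFC values refitted are not separate results, so counts of their directions do not measure independent support. Rn7s1, Rn7s2 and their sum repeat each other, as do the main Rmrp row and both Rmrp rows summed. Each Terc row is counted beside their sum, and its value depends on which row was given the counts, as described above. Of 141 refits of the 12 values under other settings, 136 kept their direction and 5 turned, and of 82 with a sample left out 9 turned. None was called. Those that turned were the main Rmrp row and both Rmrp rows summed, at -0.09 with the number series as covariate (-0.0935 for each) and within the 1300s (-0.0949 for each), and Rn7s1 at 0.0017 with no filter on low counts. With a sample left out, Rn7s1 ran from -0.28 to 0.28, Rn7s2 from -0.30 to 0.28, 7SL from -0.29 to 0.28, Rmrp (either way) from -0.17 to 0.35 and Rpph1 from -0.0786 to 0.53. Causes were not tested. The Terc row ENSMUSG00000118406 was at 5.31 with limma-voom. The Terc row ENSMUSG00000064796 did not pass the filter, and has no value, where WT replicate 3 or 4 was left out or 3 samples had to pass. The number of genes called (0) became 294 with DESeq2, 1 with limma-voom and 54 with DESeq2 and the replicate block, and ran from 0 to 52 with a sample left out, 52 being without WT replicate 1. Without mitochondrial genes, the mean share of Rn7sk in WT was 1.31% and of Malat1 in Trpc1-/- samples 0.750%.

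Same-numbered samples are different animals, and the correlations of their deviations were -0.452, -0.341 and -0.00439, so the numbers do not pair the samples. With the replicate block, the count of genes called by edgeR stayed at 0, and 972 had an unadjusted p under 0.05 (1658 on these samples when the block was dropped). Terc summed was then at 0.47, Rn7sk at 0.32, Malat1 at -0.38 and 7SL at -0.05. Counts limit the longer Rmrp row and Terc most, and other values are limited by the spread of 3 and 4 pools.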

Other observations

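Of 107 gene names with more than 1 row in the count table, 41 had at least 50 counts in every sample. For 3 of these, 1 row held at least 90% of the counts in some samples and another row did in others. They were Terc, described above, Rnu3a and Gm24105, which were singled out after their values were seen. The rows of Rnu3a, a U3 small nucleolar RNA gene, are annotated 1 base apart in length, at chr10:40258467-40258679 and chr10:40258467-40258680. Of the counts, the shorter one was given 11, 19795, 22636 and 20283 in WT (replicates 1 to 4) and 21647, 16 and 28822 in Trpc1-/- (replicates 1 to 3). The longer one was given 19622, 19, 26 and 8 in the same WT samples and 157, 23923 and 25 in the same Trpc1-/- samples. WT replicate 1 and Trpc1-/- replicate 2 were thus on the longer row, a division unlike that of Terc.

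The rows of Gm24105 overlap on chromosome 5, as a microRNA gene and a longer noncoding RNA. The microRNA row had 452 counts in WT replicate 2, 287 in WT replicate 4 and 0 in the other 5 samples, and the longer row held 37 and 21 counts in those samples and 290 to 595 in the others. As single rows these gave log2 fold changes of up to 10.6 in size.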
